A study of Mus musculus with 42 samples.

Results

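Whole main olfactory epithelium RNA was compared between mice exposed to the odour of a bacon-flavoured diet (BFD) and mice exposed to the odour of a normal chow diet (NCD). The comparison used the 5 input libraries of the BFD group and the 6 input libraries of the NCD group, 11 of the 42 libraries of the series, grouped by their labels. The comparison and the gene lists used below were chosen with earlier results of these data known. Counts within lists are therefore descriptions. Every gene that passed a filter on low counts was described, 19746 in all. The series was made to find which olfactory receptors food odours activate, by capturing ribosomes that carry phosphorylated S6 from the same tissue, and its input libraries hold the RNA before capture. All mice were adult C57BL/6NCrl males that smelled an odour for 1 h, and each library was made from 4 epithelia pooled together. The other input libraries, 5 without odour and 5 under the odour of a lard-based high-fat diet (HFD_lard), are given below only to place the levels of leading genes. The replicates of a group are therefore pools, and p-values measure the spread between these pools. The labels give no date or batch, so a difference in handling between the groups cannot be told apart from the odour.

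The main olfactory epithelium holds olfactory sensory neurons, each of which as a rule uses a single odorant receptor gene, and supporting cells rich in enzymes that break down odorants. Beneath them lie basal cells that replace the neurons, and glands whose mucus carries mucins, odorant-binding lipocalins, proteins of the BPI fold family and secreted antibodies. Plasma cells beneath mucosal epithelia make polymeric IgA, and the receptor Pigr carries it across the epithelium. In RNA from whole tissue, fewer cells of a type and less RNA per cell cannot be told apart. The labelled tissue was checked on its defining marker: Omp, the olfactory marker protein of mature sensory neurons, stood at 6920 ± 292 CPM (counts scaled to a common library size) in NCD (SD, n = 6) and 5553 ± 359 CPM in BFD (SD, n = 5).

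The libraries held 24839380 to 36245423 counts under NCD odour and 28768452 to 33354891 under BFD odour. Genes with ribosomal RNA sequence, mostly the mitochondrial mt-Rnr1 and mt-Rnr2, took 11.1 to 13.3% of the counts in NCD and 8.26 to 10.1% in BFD. These ranges did not overlap, and the exact two-sided permutation p of the difference, 0.00216, is the smallest that the splits of 11 libraries can give. The share of other mitochondrial genes differed by -0.0367 percentage points (exact permutation p = 0.727), but by -0.119 without BFD replicate 3 (p = 0.00476 by the same exact test). More genes had at least 1 count in BFD (27150 ± 192) than in NCD (26550 ± 376; exact permutation p = 0.013). The part of these library differences in the results that follow was not tested beyond the alternative fits named beside them.

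With edgeR's quasi-likelihood test and Benjamini-Hochberg adjustment, 1936 genes were higher in BFD (9.8% of 19746 tested) and 2096 were lower (10.6%) at an adjusted p under 0.05. Most of these differences were small. The median absolute log2 difference of the called genes was 0.26, 104 of them were more than 2-fold higher, and 14 were more than 2-fold lower. In 2100 genes (10.6%) the levels of the 2 groups did not overlap. A fit of all 21 input libraries, in which the more variable libraries of the other groups enter the estimate of the spread, called 313 genes higher and 224 lower. A fit that held the ribosomal RNA share of each library as a covariate, whose ranges in the 2 groups do not overlap, called 34 higher and 7 lower. A call lost in either of these fits does not by itself mean a smaller difference.

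**Figure D1:**
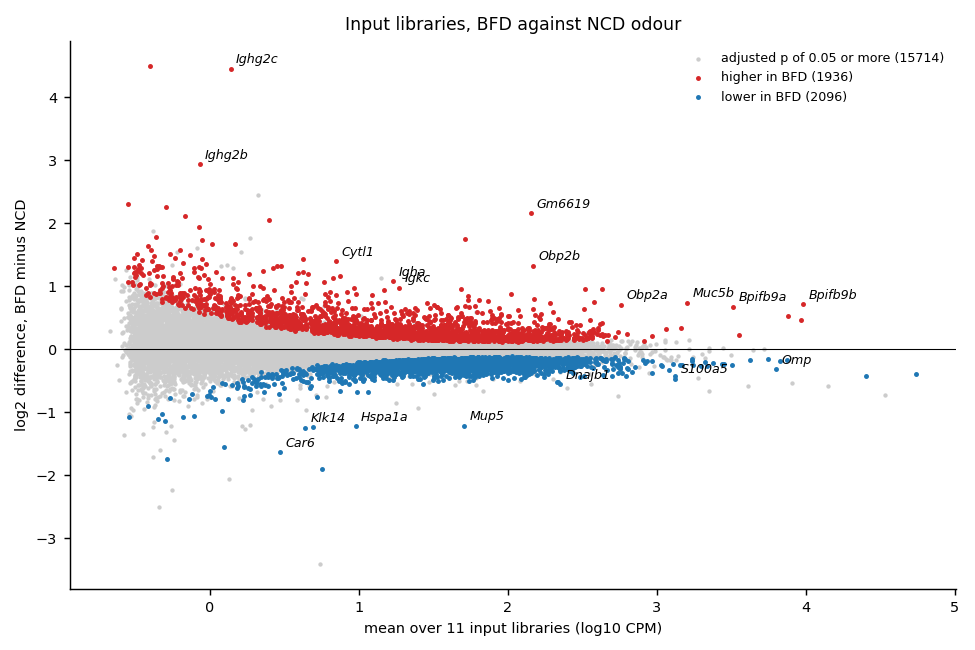
Each point is 1 of 19746 genes, placed by its mean over the 11 input libraries (log10 CPM) and its log2 difference, BFD minus NCD. The 1936 genes higher in BFD are red and the 2096 lower are blue. Immunoglobulin genes lie farthest above 0, and Mup5, Car6, Klk14 and Hspa1a lie among the genes farthest below it.

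Counting the fit described above and each alternative fit run at the same threshold, 22 genes were called higher in every fit and 7 were called lower in every fit. The 22 were Igha, Igkc, Ighg2b, Ighg2c, Pigr, Bpifb5, Bpifb9a, Bpifb9b, Obp2b, A2ml1, Dnase1, Serpina1d, Cytl1, Acan, Col10a1, Cabs1, Pcdh10, Aldh1l2, BC051076, 2310003L06Rik, Gm6619 and 5430401F13Rik. The 7 were Mup5, Hspa1a, Hspa1b, Hsph1, Car6, Klk14 and 2310057J18Rik. These genes were singled out after their values were seen. They include antibody genes and secreted proteins of mucosal surfaces on the higher side, and heat shock chaperones on the lower side.

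Several antibody genes were higher under BFD odour. Of the 13 immunoglobulin genes that passed the filter, 9 rose (69.2%, against 9.8% of all genes) and 0 fell. The class was chosen after its values were seen. The count is a description only, since genes such as Ighg2c could pass the filter through the BFD libraries alone. It was 7 with all 21 inputs in the fit, 7 with DESeq2 and 5 with the ribosomal RNA covariate. Igha (chr12:113254830-113260236 on GRCm38, the build of the files), the constant region of the IgA heavy chain, stood at 10.7 to 13.1 CPM in the NCD libraries (median 10.9). Its BFD libraries read 21.03, 22.7, 26.4, 25.7 and 23.9 CPM, so each was above every NCD library. The log2 difference was 1.08 (SE 0.07, adjusted p = 6.44e-11), a 2.12-fold difference. Igkc (chr6:70726435-70726966), the constant region of the kappa light chain, read 11.4 to 13.9 CPM in NCD (median 13.1) and 22.5, 25.8, 26.7, 26.0 and 26.4 CPM in BFD. The groups again did not overlap, with a log2 difference of 0.98 (SE 0.06, adjusted p = 7.16e-11).

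Ighg2c (chr12:113285325-113288932), the constant region of the IgG2c heavy chain, was near 0 in NCD, at 0 to 0.232 CPM (median 0.137). It read 2.40, 2.23, 3.43, 2.97 and 3.36 CPM in BFD. The log2 difference was 4.46 (SE 0.29, adjusted p = 9.58e-11), and with so few NCD counts the size of the fitted fold depends on the prior count. Ighg2b rose as well, from 0.212 ± 0.109 to 1.62 ± 0.493 CPM (log2 difference 2.94, adjusted p = 2.88e-07). Both share sequence, and 15% of the 31-base words of Ighg2c occur in another gene, mostly Ighg2b and Ighg3. Ighv1-72, a heavy-chain variable segment, read at most 0.0644 CPM in NCD and 0.605 to 1.23 CPM in BFD (adjusted p = 1.71e-07), but 98.1% of its words occur in other variable segments, so its reads could belong to a relative.

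The rise did not extend to every constant region. Ighm, the IgM heavy chain, rose by a log2 difference of only 0.28 (SE 0.08, adjusted p = 0.0105), and the call was lost when all 21 inputs entered the fit (adjusted p = 0.147). Ighg1 had a log2 difference of 0.00 (adjusted p = 0.996) and Ighd one of 0.13 (adjusted p = 0.751). Jchain, which joins IgA and IgM into polymers, rose from 1.40 ± 0.370 to 3.35 ± 0.486 CPM (log2 difference 1.25, SE 0.16, adjusted p = 1.45e-05). With the ribosomal RNA covariate its log2 difference was 1.38 and the call was lost (adjusted p = 0.149). Of the 8 tested members of the B and plasma cell list, 4 rose (50%, against 9.8% of all genes) and 0 fell. Their median log2 difference was 0.34, against 0.01 over all genes. The B cell markers Ms4a1, Cd79a and Cd79b did not pass the test (log2 differences 0.38, 0.11 and -0.33). Nor did the plasma cell marker Mzb1 (0.30, adjusted p = 0.63), whose result decides little. Mzb1 passed the count filter in 9 of the 11 fits that left out 1 library. Of its 31-base words 55.1% occur in a gene that overlaps it.

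The level under the other odours placed these genes as follows, on a scale normalized over all 21 inputs. Igha ranged from 19.9 to 24.9 CPM in BFD and from 18.9 to 24.96 CPM under HFD_lard odour, above the 10.1 to 12.5 CPM of NCD and the 10.6 to 15.2 CPM without odour. Ighg2c differed from this order, since the HFD_lard libraries (0.289 to 0.684 CPM) lay between NCD and BFD (2.10 to 3.25 CPM). No test was made of the other odours, whose libraries enter here as levels only.

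**Figure D2:**
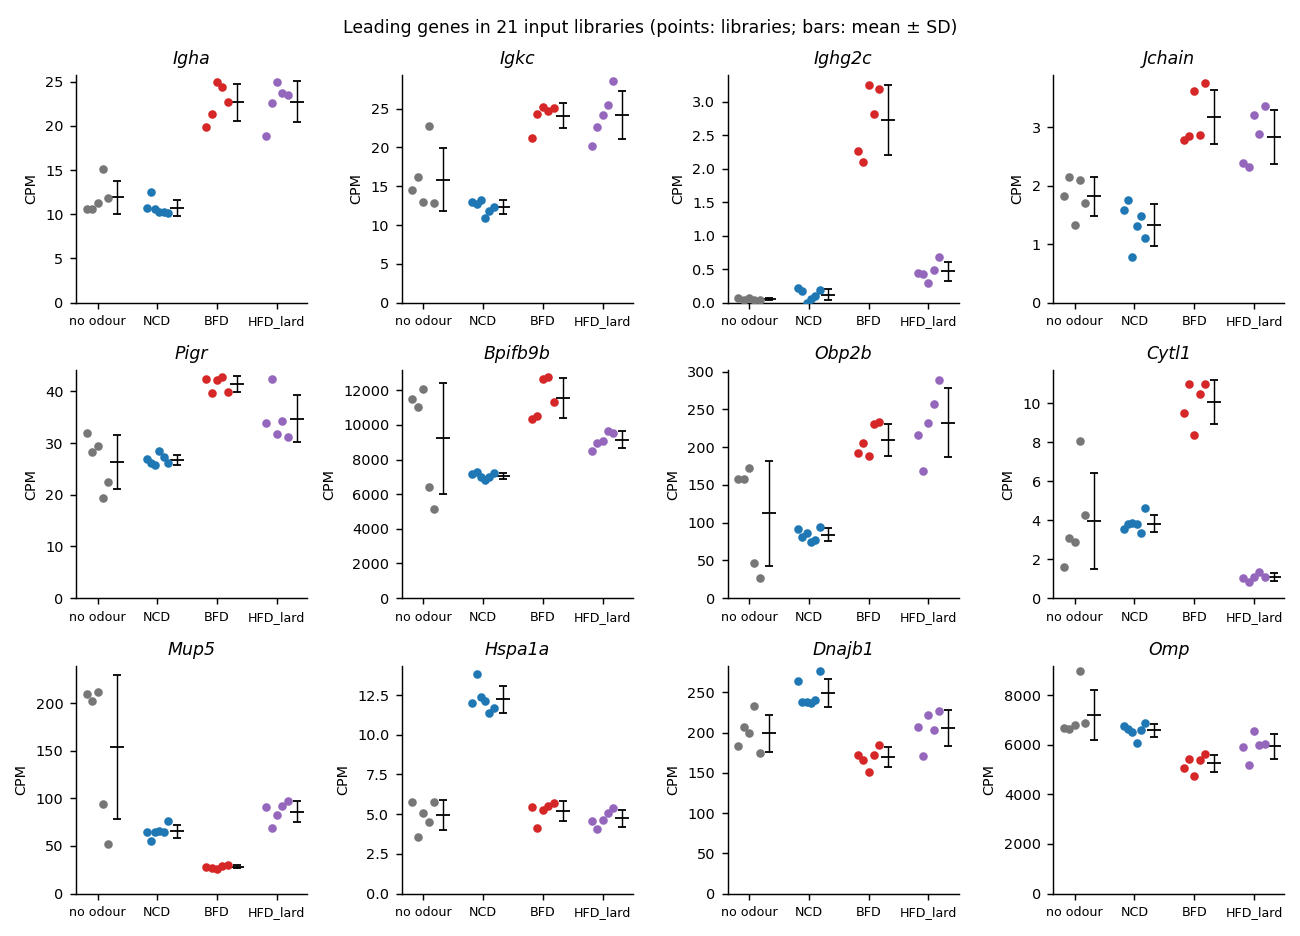
CPM of 12 genes in each of 21 input libraries (points), with the mean ± SD of each group beside them, on axes that start at 0. Igha, Igkc and Jchain are high under BFD and HFD_lard odour, but Igkc in replicate 4 without odour (22.8 CPM) lies within the BFD range (21.2 to 25.2 CPM). Hspa1a is higher in the 6 NCD libraries than in all other libraries, and Mup5, Obp2b and Bpifb9b differ widely among the 5 libraries without odour.

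Secreted proteins of the nasal glands formed the next group of leading genes. Pigr, the receptor that carries polymeric antibodies into mucus, read 27.0 to 29.9 CPM in NCD (median 28.02) and 45.0, 42.0, 44.6, 45.1 and 42.0 CPM in BFD. The log2 difference was 0.64 (SE 0.05, adjusted p = 9.03e-10), with no overlap between the groups. Dmbt1, a scavenger glycoprotein of mucosal secretions, rose by 0.59 (SE 0.05, adjusted p = 2.36e-08), a call that was lost with all 21 inputs in the fit (adjusted p = 0.205). Muc5b, a gel-forming mucin, rose from 1219 ± 175 to 2040 ± 107 CPM (log2 difference 0.74, adjusted p = 1.47e-05). With the ribosomal RNA covariate its log2 difference was 0.55 and the call was lost (adjusted p = 0.672). Muc5ac and Muc2, mucins chosen after their values were seen, rose by 0.80 and 0.75. The nasal gland and mucus list did not move as 1 group, and its median log2 difference was 0.00. Of 18 tested members 5 rose (27.8%, against 9.8% of all genes) and 4 fell (22.2%, against 10.6%). Those that fell were Agr2 (-0.22), Reg3g (-0.17), Scgb1c1 (-0.16) and Tff2 (-0.39), which serve mucin folding, defence and mucus. The count that fell was 2 to 5 when 1 library was left out, and 0 with all 21 inputs, with the ribosomal RNA covariate and with the length trend removed.

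Of 10 tested genes of the BPI fold family, secreted lipid-binding proteins of nasal and oral mucus, 3 rose (30%, against 9.8% of all genes) and 0 fell. The median log2 difference of the family was -0.09. Bpifb9b read 7165 to 7657 CPM in NCD (median 7435) and 10970, 11170, 13380, 13470 and 11930 CPM in BFD. Every BFD library was above every NCD library, by a log2 difference of 0.71 (SE 0.06, adjusted p = 1.33e-08). Its neighbour Bpifb9a differed by 0.67 (SE 0.06, adjusted p = 1.26e-08) and Bpifb5 by 0.60 (adjusted p = 5.72e-07). Bpifb9a and Bpifb9b share most of their sequence (72.2% and 80.5% of their 31-base words occur elsewhere, mostly in each other), so reads may be split between them. The 3 genes lie side by side at chr2:154223742-154320646, where all 4 genes tested were higher, the fourth being the pseudogene Gm14197 (log2 difference 0.71, adjusted p = 0.0026). The ends of this stretch were set by called genes, so the count is a description only. The members that did not pass, such as Bpifa1 (-0.08) and Bpifb1 (-0.03), differed little.

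Lipocalins, small secreted carriers of odorants and pheromones, moved in both directions. Obp2b, an odorant-binding protein (chr2:25737009-25740097), read 77.9 to 100.1 CPM in NCD (median 87.2). In BFD it read 203.1, 217.3, 199.2, 242.1 and 244.9 CPM, a 2.51-fold difference (log2 difference 1.33, SE 0.07, adjusted p = 1.19e-09) with no overlap between the groups. Its relative Obp2a, which lies close by on the same strand, rose from 387.8 to 471.1 CPM (median 458.2) to 612.7, 694.2, 781.1, 793.6 and 770.1 CPM (log2 difference 0.71, adjusted p = 1.3e-07). With all 21 inputs in the fit the call for Obp2a was lost (adjusted p = 0.099). Lcn4 (0.51), Lcn3 (0.33) and Mup4 (0.27), also lipocalins, rose by smaller log2 differences, and all 3 lost their calls with all 21 inputs (adjusted p = 0.109, 0.443 and 0.417).

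Mup5, a major urinary protein (chr4:61831319-61835233), went the other way and had the smallest p of all genes that fell. It read 58.1 to 80.6 CPM in NCD (median 68.5) and 29.6, 28.9, 27.6, 30.6 and 31.4 CPM in BFD, 2.32-fold lower (log2 difference -1.22, SE 0.06, adjusted p = 3.45e-12). The BFD libraries stayed within a narrow band below every NCD library. Of its 31-base words 37% occur in other genes, mostly Mup9 and Mup14. Obp1a, another odorant-binding protein, fell by 0.45 on the log2 scale (adjusted p = 5.31e-05), a call lost with all 21 inputs (adjusted p = 0.137). Of 11 lipocalin genes tested, 5 thus rose (45.5%, against 9.8% of all genes) and 2 fell (18.2%, against 10.6%). The median log2 difference was 0.05, and with all 21 inputs 1 rose and 1 fell. Without odour Mup5 ranged from 51.7 to 211.9 CPM on the scale of all 21 inputs, a wider span than in the NCD (55.6 to 76.1), BFD (26.1 to 29.8) or HFD_lard libraries (69.3 to 96.8).

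A pair of gene neighbourhoods outside these families held further genes that rose. Odam and Cabs1, which encode secreted or calcium-binding proteins, bound a stretch at chr5:87885029-87981544 in which 4 of 5 tested genes were higher in BFD. Both ends were set by called genes that are among the 4, so the count is a description only. Over all genes 9.8% rose. Odam rose from 47.6 ± 3.70 to 76.3 ± 4.31 CPM (log2 difference 0.68, adjusted p = 2.35e-09), a call lost with all 21 inputs in the fit (adjusted p = 0.0554). Cabs1 rose by 0.67 (adjusted p = 3.54e-10) and 2310003L06Rik by 0.80 (adjusted p = 1.24e-09). BC051076, an antisense transcript, rose from 297.9 ± 17.5 to 581.5 ± 50.8 CPM (log2 difference 0.96, adjusted p = 6.99e-12), and Csn3, a casein gene between them, did not pass (-0.21, adjusted p = 0.37).

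The smallest p of all genes tested belonged to Gm6619 (chr6:131486400-131491493), a predicted protein-coding gene without an established role. It read 53.6 to 59.0 CPM in NCD (median 54.7) and 229.0, 231.6, 246.7, 278.7 and 253.5 CPM in BFD, 4.46-fold higher (log2 difference 2.16, SE 0.05, adjusted p = 1.62e-20). The groups were far apart. 5430401F13Rik starts at the same base and rose by 1.74 (adjusted p = 1.84e-18). The pair shares 79.8% and 86.5% of 31-base words with other genes, so they are in part 1 signal counted under both names. Bhlha15, a transcription factor of secretory cells also known as Mist1, rose by 0.47 (adjusted p = 1.71e-07) and lost its call with all 21 inputs in the fit (adjusted p = 0.0696).

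Other secreted proteins fell. Car6, the secreted carbonic anhydrase of saliva and nasal mucus, read 3.46 to 5.10 CPM in NCD (median 4.35) and 1.47, 1.43, 1.40, 1.42 and 1.14 CPM in BFD (log2 difference -1.63, SE 0.13, adjusted p = 5.86e-09). Klk14, a kallikrein protease, read 4.96 to 6.94 CPM in NCD (median 5.93) and 2.70, 1.94, 3.12, 2.70 and 2.04 CPM in BFD (log2 difference -1.25, adjusted p = 2.53e-07). Neither gene's groups overlapped. Reads of Klk14 could also come from 2310002F09Rik, whose exons overlap it on the opposite strand. Under HFD_lard odour both stood higher than in any BFD or NCD library, at 6.20 to 8.26 CPM for Car6 and 8.48 to 9.33 CPM for Klk14 on the scale of all 21 inputs. 2310057J18Rik, of no established role, fell from 8.51 ± 1.27 to 2.27 ± 0.338 CPM (log2 difference -1.90, adjusted p = 4.28e-11).

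Among the other 15 established genes with the smallest p in the lower direction, Sprr1a, a cornified envelope protein of squamous epithelium, fell by 0.67 on the log2 scale (adjusted p = 5.72e-07). Sult6b1, a sulfotransferase, fell by 0.49 (adjusted p = 1.91e-06) and Tex33, a testis-expressed gene, by 0.45 (adjusted p = 2.62e-06). Tmsb10, an actin-binding thymosin, Ppa1, a pyrophosphatase, and Psmb1, a subunit of the proteasome, fell by 0.39, 0.36 and 0.38. None of these 6 genes had overlapping groups. On the higher side A2ml1, a protease inhibitor, rose by 0.45, Aldh1l2, a mitochondrial folate enzyme, by 0.60 and Dnase1, the secreted deoxyribonuclease, by 0.84. Serpina1d, of the antitrypsin family, rose from 0.517 ± 0.0884 to 1.65 ± 0.215 CPM, but 64.7% of its words occur in related genes.

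Some genes of cartilage were higher in BFD. Cytl1 and Col10a1 were chosen by their values and belong to no list, while Acan and Col2a1 are in the list of stroma, bone and cartilage. Cytl1, a cytokine-like protein of cartilage (chr5:37735519-37739820), read 3.51 to 4.88 CPM in NCD (median 3.99) and 10.1, 11.6, 8.87, 11.03 and 11.6 CPM in BFD. No library of one group reached into the other (log2 difference 1.40, SE 0.09, adjusted p = 1.48e-10). Acan, the large proteoglycan of cartilage, rose from 1.78 ± 0.418 to 4.45 ± 0.406 CPM (log2 difference 1.32, adjusted p = 4.4e-07), and Col10a1, the collagen of hypertrophic cartilage, from 2.51 ± 0.303 to 5.28 ± 0.146 CPM (log2 difference 1.07, adjusted p = 1.73e-07). Col2a1, the main cartilage collagen, rose by 0.57 (adjusted p = 0.00138).

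Within the list of stroma, bone and cartilage, 3 of 13 tested members rose (Acan, Col2a1 and Pdgfra, the last by 0.25) and 3 fell. Each is a share of 23.1%, against 9.8% and 10.6% of all genes, and the list median was -0.10. The stromal receptor gene Pdgfra passed at an adjusted p of 0.00319, while Comp, another cartilage gene, did not pass (-0.34, adjusted p = 0.238). The members that fell included the osteocalcin genes Bglap (-0.37) and Bglap2 (-0.29), markers of bone. The cartilage genes also spread widely elsewhere: on the scale of all 21 inputs Cytl1 ranged from 0.814 to 1.35 CPM under HFD_lard odour and from 1.61 to 8.05 CPM without odour. Cartilage lies beside the nasal epithelium, and the part of dissection in these values was not tested.

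Heat shock genes were lower under BFD odour than under NCD odour. These genes encode chaperones that refold damaged proteins, and heat shock factor switches them on by binding paired GAA units in their promoters. Of 14 tested members of the heat shock list, 11 fell and 0 rose, against 10.6% of all genes that fell, and the list's median log2 difference was -0.28 against 0.01 over all genes. The inducible Hsp70 genes Hspa1a and Hspa1b differed most, followed by their co-chaperone Dnajb1 and by Hsph1, an exchange factor of Hsp70. The 200 bases before the start sites of Hspa1a (chr17:34972157-34972356, minus strand), Hspa1b (chr17:34959239-34959438, minus strand) and Hsph1 (chr5:149636337-149636536, minus strand) are shown because these 3 genes were lower in every fit. They are RefSeq sequences on GRCm38.p6, with matches to GAANNTTC or TTCNNGAA in capitals.
Hspa1a: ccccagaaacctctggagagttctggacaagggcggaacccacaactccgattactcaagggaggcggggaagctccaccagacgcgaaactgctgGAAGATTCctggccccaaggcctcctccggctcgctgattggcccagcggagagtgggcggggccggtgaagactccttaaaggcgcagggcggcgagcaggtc
Hspa1b: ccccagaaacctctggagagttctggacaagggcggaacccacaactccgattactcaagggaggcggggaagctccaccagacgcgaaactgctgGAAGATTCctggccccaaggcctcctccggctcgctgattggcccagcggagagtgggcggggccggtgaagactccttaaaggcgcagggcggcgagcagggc
Hsph1: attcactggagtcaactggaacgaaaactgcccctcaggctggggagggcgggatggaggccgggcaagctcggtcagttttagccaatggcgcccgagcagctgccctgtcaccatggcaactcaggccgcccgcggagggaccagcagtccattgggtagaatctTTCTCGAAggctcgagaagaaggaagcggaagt

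Each of these windows held 1 match, and the windows of Hspa1a and Hspa1b differed at 1 of 200 positions. For Hsph1 the first of 2 listed start sites was used, and the first window of Dnajb1 held 0 matches. Both motifs were searched on the strand of the gene, and each reads the same on either strand. GAANNTTC occurred in 5.41% of 27025 promoter windows of this length, TTCNNGAA in 5.67% and either in 10.4%. Of the heat shock list, 10 members had a window, and 6 of these held a match (60%). Hspa8, Hsp90aa1, Hsp90ab1 and Cryab had no entry.

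Hspa1a (chr17:34969190-34972156) read 11.9 to 14.5 CPM in NCD (median 12.7) and 5.77, 4.40, 5.56, 5.81 and 6.03 CPM in BFD. Every NCD library was far above every BFD library, and the groups differed 2.33-fold (log2 difference -1.22, SE 0.08, adjusted p = 1.84e-10). Hspa1b read 6.00 to 8.74 CPM in NCD (median 6.33) and 2.82, 2.52, 2.89, 2.73 and 3.26 CPM in BFD (log2 difference -1.23, SE 0.11, adjusted p = 3.72e-08). The 2 genes share 70.1% and 68.1% of their 31-base words with other genes, mostly each other, so their reads may be split between them. An antisense gene, Gm20481, overlaps Hspa1a and shares sequence with both.

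Dnajb1 read 249.4 to 293.6 CPM in NCD (median 251.7) and 182.6, 176.3, 159.1, 181.6 and 194.3 CPM in BFD (log2 difference -0.55, adjusted p = 1.76e-07). With the ribosomal RNA covariate its log2 difference was -0.43 and the call was lost (adjusted p = 0.235). Hsph1 fell by 0.38 on the log2 scale (adjusted p = 6.27e-06). The small heat shock proteins Hspb1 (-0.38) and Cryab (-0.32), the mitochondrial chaperonins Hspe1 (-0.35) and Hspd1 (-0.24), the constitutive Hspa8 (-0.25) and Hsp90ab1 (-0.16), and the co-chaperone Dnaja1 (-0.22) fell by smaller log2 differences. Hsp90aa1 (-0.20), Bag3 (-0.10) and Hspa4l (-0.10) did not pass. Dnaja1 lost its call without BFD replicate 1 (adjusted p = 0.0558), and Hsp90ab1 lost it in 5 of the 11 fits that left out 1 library. With all 21 inputs in the fit 6 members were lower (list median -0.29), with the ribosomal RNA covariate 3 (list median -0.17).

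Set beside the other odours, NCD stood apart rather than BFD. On the scale of all 21 inputs Hspa1a ranged from 11.4 to 13.8 CPM in the NCD libraries, from 4.15 to 5.72 CPM in BFD, from 4.04 to 5.41 CPM under HFD_lard odour and from 3.59 to 5.78 CPM without odour. The mean level of the heat shock list, as the average over its members of log2(CPM + 1) centred on the 21 inputs, was 0.23 in NCD (0.16 to 0.29) and -0.15 in BFD (-0.20 to -0.06). It was -0.13 without odour and 0.01 under HFD_lard odour. These levels are descriptions, and no test was made across the 4 groups.

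**Figure D3:**
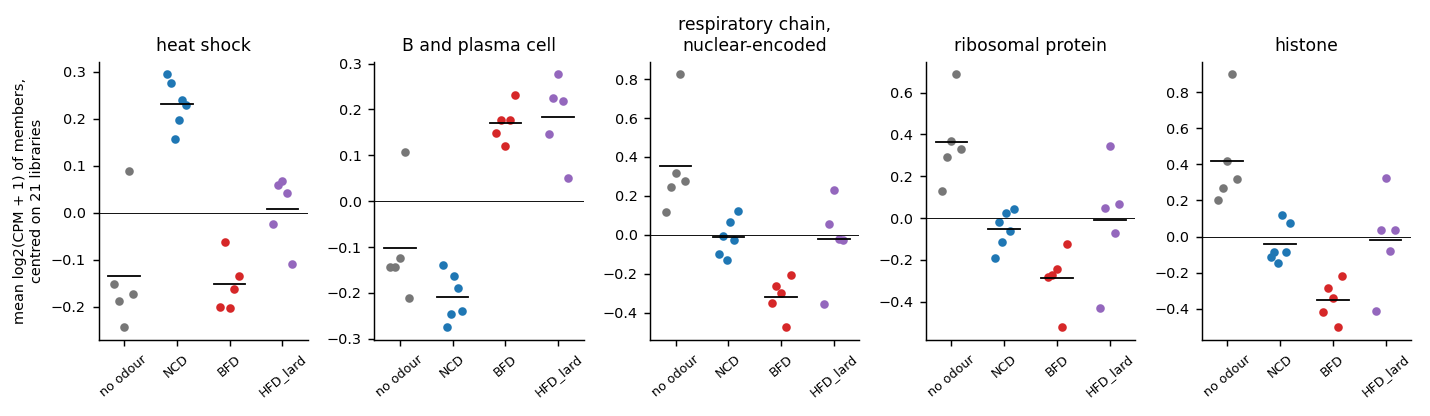
Mean log2(CPM + 1), centred on 21 libraries, of the members of 5 gene lists in each of 21 input libraries (points), by odour group, with the group mean as a line. The heat shock list is highest in the 6 NCD libraries (0.16 to 0.29), while the nuclear respiratory chain list is highest without odour (group mean 0.36) and lowest in BFD (-0.32).

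Mature sensory neuron genes did not move as a group. Their median log2 difference was 0.00. Of 24 tested genes of odour transduction and neuron identity, 4 rose (16.7%, against 9.8% of all genes) and 4 fell (16.7%, against 10.6%). The counts were 0 and 1 with all 21 inputs in the fit. Omp (chr7:98143359-98145502) read 6402 to 7274 CPM in NCD (median 6942) and 5380, 5750, 5016, 5691 and 5928 CPM in BFD, so the groups did not overlap. The log2 difference was -0.32 (SE 0.06, adjusted p = 0.000407). With the ribosomal RNA covariate it was -0.27 and did not pass (adjusted p = 0.931). Gnb1, a G protein subunit, and Rtp2, a receptor chaperone, fell by 0.24 and 0.16. Gng13, another G protein subunit, fell by 0.44, a call lost in 6 of the 11 fits that left out 1 library. Slc24a4 (0.22), Slc12a2 (0.17), Cngb1 (0.15) and Pde4a (0.14), which carry ions or break down cyclic AMP in the odour response, rose. Without BFD replicate 1 the counts that rose and fell were 1 and 2.

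Genes of immature neurons were lower where they passed. Of 13 tested, 0 rose and 5 fell, among them Stmn1 (-0.38), Tubb3 (-0.37) and Gap43 (-0.31, adjusted p = 7.61e-05), which serve the growing cytoskeleton and axon, against 10.6% of all genes that fell. The count was 2 with all 21 inputs in the fit and 0 with the ribosomal RNA covariate. Gap43 read 122.6 to 134.9 CPM in NCD and 97.6 to 113.3 CPM in BFD, without overlap. Of 16 progenitor and cell cycle genes 2 rose (12.5%, against 9.8% of all genes) and 3 fell (18.8%, against 10.6%). Among them were Pcna (-0.24), Ccna2 (-0.23) and Top2a (0.26), and 0 of the 16 passed with all 21 inputs or with the covariate. Krt5, the keratin of horizontal basal cells, did not pass (log2 difference -0.08).

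Sensory neurons change the expression of some genes with their activity, S100a5 being the usual marker. Of 13 such genes tested, 6 rose and 2 fell, with a median log2 difference of 0.16, against 9.8% and 10.6% of all genes. The list was not split by whether activity raises or lowers a gene, so these values give no direction of activity. In the fit of all 21 inputs 2 were higher and 0 lower, with the ribosomal RNA covariate 1 and 0, and with the length trend removed 3 and 2. Pcdh10, an adhesion protein of axon sorting, read 23.0 to 27.1 CPM in NCD (median 24.4) and 39.6, 37.7, 42.5, 41.5 and 40.9 CPM in BFD (log2 difference 0.71, SE 0.05, adjusted p = 8.59e-10). S100a5 went the other way, from 1384 to 1718 CPM (median 1487) in NCD to 1046, 1126, 977.1, 1148 and 1209 CPM in BFD (log2 difference -0.47, adjusted p = 1.69e-05). Neither gene's groups overlapped. Reads of Pcdh10 may include the overlapping antisense gene 1700027H10Rik, and the call for S100a5 was lost with all 21 inputs in the fit (adjusted p = 0.071). The axon guidance genes Plxna1 (0.21), Efna5 (0.20), Epha5 (0.20) and Kirrel3 (0.16) and the adhesion gene Pcdh17 (0.28) rose by less, and Pcp4l1 fell by 0.24.

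Immediate early genes, which neurons induce within minutes to hours of activity, mostly did not differ in whole tissue. Of 28 tested, 4 rose (14.3%, against 9.8% of all genes) and 3 fell (10.7%, against 10.6%). The latter count was 1 without BFD replicate 1, BFD replicate 3 or NCD replicate 5. Fosb rose from 2.51 ± 0.331 to 4.73 ± 0.587 CPM (log2 difference 0.91, adjusted p = 1.47e-05), with all 5 BFD libraries above the 6 NCD libraries. With the ribosomal RNA covariate its log2 difference was 0.98 and the call was lost (adjusted p = 0.212). The orphan nuclear receptors Nr4a3 (0.44), Nr4a2 (0.34) and Nr4a1 (0.21) rose, calls that were lost with all 21 inputs (adjusted p = 0.141, 0.0934 and 0.163) and with the covariate. Fos (0.09, adjusted p = 0.427) and Egr1 (0.09, adjusted p = 0.216) did not pass. Egr2 fell by 0.54, a call lost in 8 of the 11 fits that left out 1 library.

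Odorant receptor genes, each used by a small share of the neurons, were little changed in whole tissue. Of 1170 counted, 838 passed the filter, 24 rose and 18 fell, with a median log2 difference of -0.01. These counts correspond to smaller shares than the 9.8% and 10.6% of all genes, at the low counts of most receptors. Olfr1507 (chr14:52488791-52495749) had the smallest p among them. It read 59.3 to 66.3 CPM in NCD and 80.5, 78.7, 98.0, 86.6 and 78.2 CPM in BFD (log2 difference 0.43, SE 0.05, adjusted p = 1.34e-05). Olfr1264 (0.41, adjusted p = 3.75e-05) and Olfr1508 (0.33, adjusted p = 0.000428) followed, and Olfr1508 lies next to Olfr1507. Receptor genes together, 120 pseudogenes among them, took 0.262 ± 0.012% of counts in NCD and 0.282 ± 0.013% in BFD (exact two-sided permutation p = 0.013). These are shares of all counts, and the share of ribosomal RNA-like genes differed by -2.58 points. The part of that difference in the receptor share was not tested. With all 21 inputs in the fit 6 were higher and 2 lower, and without BFD replicate 1 the count of those that fell was 9. Of 8 trace amine receptors and 4 vomeronasal receptors tested, 0 passed in either direction.

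Some supporting cell genes were lower. Of 29 tested genes of supporting cells and odorant metabolism, 12 fell and 1 rose, with a median log2 difference of -0.15, against 10.6% of all genes that fell. The other 16 did not pass. Gstm2 (-0.33), a glutathione transferase, Aldh1a1 (-0.27), an aldehyde dehydrogenase, and Cbr2 (-0.27), a carbonyl reductase, had the smallest p among those that fell. Cyp2a5 and Cyp2g1, cytochromes P450 abundant in olfactory mucosa, fell by 0.22 (adjusted p = 0.00662) and 0.18 (adjusted p = 0.035) on the log2 scale. The call for Cyp2g1 was lost in 7 of the 11 fits that left out 1 library. The member that rose was Muc2. With all 21 inputs in the fit 2 of the 29 were lower, with the ribosomal RNA covariate 0 and with the length trend removed 7. The list medians in these fits were -0.15, -0.01 and -0.10.

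**Figure D4:**
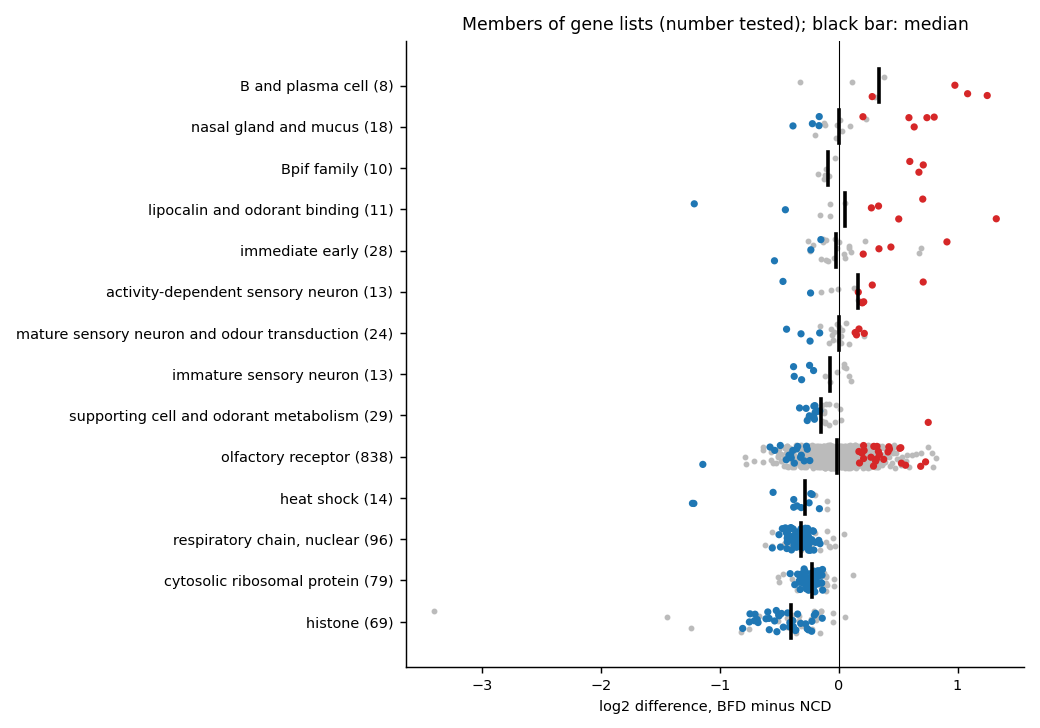
Log2 difference, BFD minus NCD, of each tested member (points) of the gene lists, with the list median as a black bar, members called higher in red and lower in blue. Members of the heat shock, nuclear respiratory chain and histone lists lie mostly below 0. The medians of the mature sensory neuron and receptor lists are 0.00 and -0.01. Those of the immature and activity-dependent sensory neuron lists are -0.08 and 0.16.

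Markers of other cell types were tested in the same way, and over all genes 9.8% rose and 10.6% fell. Of 18 genes of motile cilia 5 rose (27.8%, against 9.8% of all genes) and 2 fell, led by the dynein heavy chains Dnah11 (0.58) and Dnah9 (0.31) and by Cfap43 (0.28), but 0 passed with all 21 inputs in the fit or with the ribosomal RNA covariate. Of 7 genes of olfactory ensheathing glia 2 fell, Fabp7 (-0.35) and S100b (-0.24), which also passed with all 21 inputs (adjusted p = 0.0165 and 0.0421) and did not with the covariate. Of 11 macrophage genes 3 fell, Tyrobp (-0.29), Fcer1g (-0.25) and C1qb (-0.22), but the count was 1 or 2 in every fit that left out 1 library. Of 10 microvillous, tuft and ionocyte genes 1 fell, Ascl3 (-0.23), and of 9 horizontal basal cell genes 1 rose, Itgb4 (0.31). In the endothelial (10 tested), neutrophil (11), erythroid (7), T and NK cell (6) and skeletal muscle (3) lists 0 passed in either direction.

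Of 9 markers of olfactory bulb and brain, tissue that adjoins the epithelium at dissection, 4 rose and 0 fell, with a median log2 difference of 0.25, against 9.8% of all genes that rose. The count was 0 with all 21 inputs in the fit, 0 with the ribosomal RNA covariate, and 2 to 4 when 1 library was left out. They were Doc2g (1.01, adjusted p = 0.0153), Gad1 (0.72), Mobp (0.48) and Cdhr1 (0.19), of which Cdhr1 is also a gene of other sensory cells. The summed level of the list was 164.1 to 175.3 CPM in NCD and 181.7 to 190.0 CPM in BFD. The levels of Doc2g were low, at 0.401 ± 0.165 CPM in NCD and 0.815 ± 0.265 CPM in BFD, and its call was lost without BFD replicate 2 (adjusted p = 0.0699). Gad1 lost its call without BFD replicate 1 or NCD replicate 5, Mobp in 9 of the 11 fits that left out 1 library, and the part of bulb tissue in the neuronal results was not tested.

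The largest lists that moved one way held mostly short transcripts. Of nuclear respiratory chain genes 76% fell, of cytosolic ribosomal protein genes 65.8% and of histone genes 52.2%, against 10.6% of all genes. Of 96 nuclear genes of the respiratory chain 73 fell and 0 rose (median log2 difference -0.32), with Ndufa13 (-0.36), Sdhd (-0.36) and Uqcrc1 (-0.35) as those of smallest p. Of 79 cytosolic ribosomal protein genes 52 fell and 0 rose (median -0.22), among them Rpl5 (-0.31) and Rpl30 (-0.28). Of 69 histone genes 36 fell and 0 rose (median -0.40), among them H3f3a (-0.40), Hist1h2bf (-0.68) and Hist1h2bg (-0.41). Ndufa13 read 112.0 to 142.7 CPM in NCD and 91.4 to 102.8 CPM in BFD, a gap that no library crossed. The ribosomal protein count was 28 without BFD replicate 1 and 34 without NCD replicate 6. The calls depended on the fit: with all 21 inputs 8, 1 and 5 members of the 3 lists were lower, and with the ribosomal RNA covariate 0 of each. The list medians changed less. They were -0.325, -0.229 and -0.408 with all 21 inputs, and -0.197, -0.19 and -0.191 with the covariate.

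Transcript length moved with these differences. The median log2 difference was -0.11 in the shortest 10% of genes, of which 20.2% fell and 5.11% rose. In the longest 10% it was 0.12, with 32.5% rising and 1.07% falling. Across 19563 genes with a length, Spearman's rho between length and log2 difference was 0.28, as a description across genes of the same 11 libraries. The median lengths of the respiratory chain, ribosomal protein and histone lists were 1170.5, 1106 and 630 bases. After the trend with length was removed from each library, 63 respiratory chain, 20 ribosomal protein and 27 histone genes were called lower, as were 11 of the 14 heat shock genes. These were not all the calls of the first fit, since Hsp90ab1 lost its call (adjusted p = 0.0524). That fit was chosen after seeing the data.

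Kinds of transcripts differed as well. Of 827 genes annotated as TEC, a GENCODE class of mostly unspliced transcripts that await experimental support, 163 rose (19.7%) and 1 fell, with a median log2 difference of 0.28. Of 91 sense-intronic genes, whose transcripts lie inside introns of other genes, 25 rose (27.5%) and 0 fell. Among 680 lincRNAs 88 rose (12.9%) and 9 fell, while of 16119 protein-coding genes 1445 rose (8.96%) and 2029 fell (12.6%). After the length trend was removed 181 TEC genes were higher and 2 lower. With all 21 inputs in the fit 37 TEC and 8 sense-intronic genes were higher, and with the ribosomal RNA covariate 1 and 0. The parts of intronic RNA and of RNA quality in these differences were not tested.

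**Figure D5:**
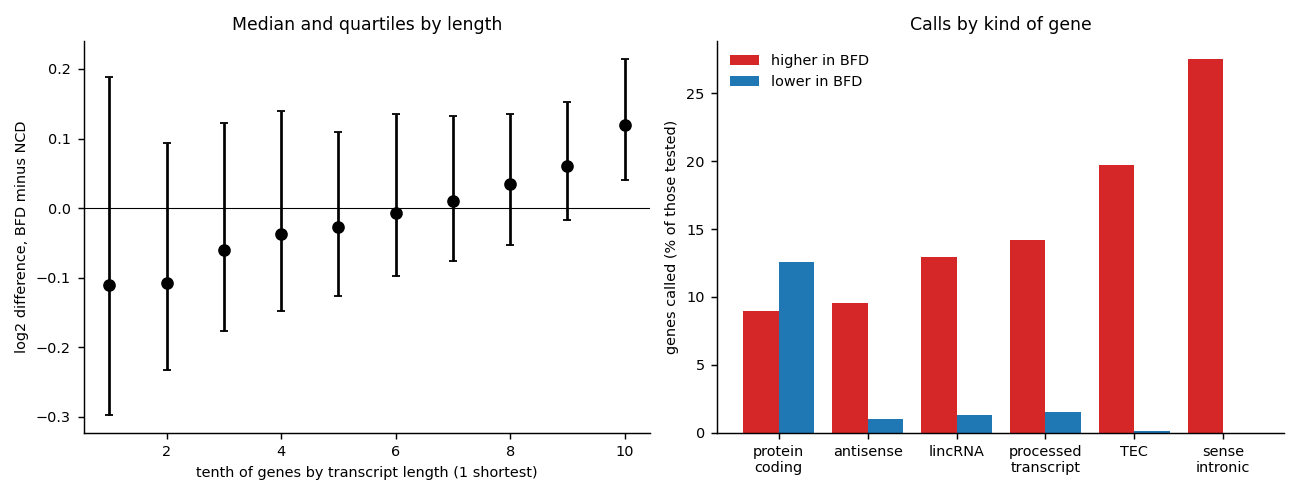
Left, the median and quartiles of the log2 difference, BFD minus NCD, in 10 equal groups of genes by transcript length. Right, the percent of tested genes called higher (red) or lower (blue) in each kind of transcript. The median climbs from -0.11 in the shortest group to 0.12 in the longest, and TEC and sense-intronic genes hold more higher calls (19.7% and 27.5%) than protein-coding genes (8.96%).

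The calls in the remaining lists depended on the fit, and with the ribosomal RNA covariate 0 members of any of them passed. Over all genes 9.8% rose and 10.6% fell. Of 19 circadian clock genes 4 rose, among them Per3 (0.34), Per2 (0.21) and Per1 (0.17), and 0 fell (21.1% against 9.8% of all genes). None of the 4 passed with all 21 inputs in the fit, and Per1 also lost its call without BFD replicate 4 (adjusted p = 0.0873). Of 9 receptors for metabolic hormones and growth factors 3 rose, the IGF1 receptor Igf1r (0.35), the insulin receptor Insr (0.21) and Fgfr1 (0.18), a share of 33.3%. All 3 lost their calls with all 21 inputs (adjusted p = 0.14, 0.148 and 0.0554). Of 12 genes of the xenobiotic and oxidative response 1 rose (Cyp1b1, 0.36) and 4 fell, including Nqo1 (-0.32) and Txnrd1 (-0.18), and with all 21 inputs 2 members were lower. Of 12 glucocorticoid-responsive genes 3 fell, the cell cycle inhibitor Cdkn1a (-0.26), the metallothionein Mt1 (-0.29) and Ddit4 (-0.20). Of 12 lipid uptake genes 1 rose (Vldlr, 0.28) and 1 fell (Fabp5, -0.49).

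In the list of ER stress genes, 16 tested, 1 rose (Asns, 0.18) and 1 fell (Atf4, -0.17), and of 17 interferon-responsive genes 1 fell (Bst2, -0.35). Of 13 mitochondrially encoded respiratory genes 1 fell, mt-Nd3 (-0.41), and of 6 ribosomal RNA-like genes 2 fell, mt-Rnr1 (-0.43) and mt-Rnr2 (-0.39). The call for mt-Rnr1 was lost in 9 of the 11 fits that left out 1 library. Of 57 clustered protocadherins, adhesion genes chosen by single neurons, 2 rose, Pcdhb10 (0.89) and Pcdhgb4 (0.42).

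The ribosome pulldown libraries of the same pools give another measurement of the same tissue, not independent animals. In them 44 of 18975 genes were higher in BFD (0.232%) and 19 lower (0.1%). Of these, 34 and 11 were also called in the inputs in the same direction, 77.3% and 57.9% of the pulldown calls and 1.76% and 0.525% of the input calls. Over all genes tested in the inputs, 9.8% were called higher and 10.6% lower. Several genes, chosen because they passed in both kinds of library, are set side by side, so their likeness is a description only. The pulldown log2 difference was 0.85 for Igha (1.08 in the inputs), 1.06 for Igkc (0.98), 1.08 for Obp2b (1.33), 0.57 for Pigr (0.64), 0.71 for Bpifb9b (0.71) and 1.87 for Gm6619 (2.16). On the lower side it was -1.53 for Mup5 (-1.22), -1.33 for Hspa1a (-1.22), -1.44 for Car6 (-1.63) and -1.45 for Klk14 (-1.25).

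Cytl1 differed by 2.59 in the pulldown and by 1.40 in the inputs. Other input calls did not pass in the pulldown. Among these were Omp (-0.09, adjusted p = 0.863) and S100a5 (-0.16, adjusted p = 0.865). Muc5b (0.21, adjusted p = 0.759) and Obp2a (0.39, adjusted p = 0.501) did not pass there either. Dmbt1 (0.58, adjusted p = 0.0697) and Hsph1 (-0.32, adjusted p = 0.0567) did not pass, but differed by nearly as much as in the inputs (0.59 and -0.38). Of the respiratory chain, ribosomal protein and histone lists 0 members were called in the pulldown, with medians of -0.07, -0.08 and -0.10, and 0 of 474 TEC genes were called. The spread between pools was larger in the pulldown, with a biological coefficient of variation of 15.2% against 7.72% in the inputs, and the difference between the 2 kinds of library was not tested.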

How the data were processed

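Mice smelled food for 1 h, the epithelia of 4 mice were pooled, and RNA was taken before (input) and after capture of phosphorylated S6 ribosomes. Per the study's methods, RNA was amplified with the Ovation RNA-Seq System V2, made into Nextera XT libraries, and quantified with Salmon within the nf-core RNA-seq workflow on GRCm38. The authors deposited these values as estimated counts per gene, neither normalized nor filtered. The table held 44674 genes, of which 556 had no name in the annotation, and 30.9% of values were not whole, so counts were rounded. Whether counting used strand is not given in the sources used here.

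The 11 input libraries were fitted with edgeR 4.0.16 (limma 3.58.1, R 4.3.3) by TMM scaling, filterByExpr with a minimum count of 10, and the robust quasi-likelihood test. Over every tested gene p-values were adjusted after Benjamini and Hochberg, with a threshold of 0.05. CPM values are TMM-scaled. Levels across odours are CPM scaled over all 21 inputs, with no model fitted. Samples were grouped by the labels. Library shares were compared by exact two-sided permutation tests. Named genes were the 15 established genes of smallest p in each direction, up to 3 members of smallest p per gene list, and Omp, S100a5, Fos, Egr1, Cyp2a5, Cyp2g1, Krt5 and Gap43, apart from 2 genes that are not reported here. Any other gene with values in the text was picked once its values had been seen. The comparison and the gene lists were chosen with earlier results of these data known. Words shared between genes were counted over 31-base stretches of their transcripts. Promoters are RefSeq windows on GRCm38.p6.

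Alternatives were other size factors, DESeq2 1.42.0, other filters, removal of ribosomal RNA and mitochondrial genes, all 21 inputs, the ribosomal RNA share as a covariate, a replicate block, a threshold of 0.001 and leaving out each library. Removal of a length trend from each library was added after seeing the data. The fits were tested on simulated data. The closest 2 libraries of 25 pairs within a group differed beyond counting noise (chi-square per degree of freedom 3.33), so none was counted as a repeat.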

Additional observations from a re-analysis of the deposited data

Results flagged for a closer look

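Of 262 sets of values examined, each a gene or library share in 1 odour group, 16 held a library whose gap to the nearest of the others was past Dixon's 95% critical value, where chance gives about 1 in 20. No explanation was examined for any of them.

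Among genes that rose, Igha stood at 13.1 CPM in NCD replicate 2, above the 10.7 to 11.3 CPM of the other NCD libraries and below every BFD library. Igkc stood at 22.48 CPM in BFD replicate 1, below the 25.8 to 26.7 CPM of the other BFD libraries. Obp2a stood at 387.8 CPM in NCD replicate 4, against 441.8 to 471.1 CPM in the others. Slc24a4 was highest in BFD replicate 3, at 51.14 CPM. Nr4a1 was lowest in NCD replicate 3, at 45.47 CPM against 48.3 to 49.9 CPM.

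Among genes that fell, Hspa1a stood at 4.397 CPM in BFD replicate 2, below the 5.56 to 6.03 CPM of the other BFD libraries. Hspa1b stood at 8.737 CPM in NCD replicate 3, above the 6.00 to 6.64 CPM of the other NCD libraries. Hsph1 read 111.9 CPM in BFD replicate 4, and Aldh1a1 read 428.2 CPM in the same library, each the highest of BFD. Car6 was lowest in BFD replicate 5, at 1.143 CPM. Egr2 was lowest in BFD replicate 1, at 0.6911 CPM.

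NCD replicate 6 was the highest of its group in several measures. Cryab read 64.57 CPM there, H3f3a 586.2 CPM and Gnb1 3296 CPM, and ribosomal RNA-like genes took 13.29% of its counts against 11.1 to 11.7% in the other NCD libraries. BFD replicate 3 had a mitochondrial share of 1.305%, against 0.869 to 0.923% in the other BFD libraries.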

How the results depend on the processing

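Of 119 named genes called, 118 were still called with DESeq2, 119 with its size factors, 103 with the length trend removed, 109 to 116 without 1 library, 58 with all 21 inputs and 37 with the ribosomal RNA covariate. The covariate reversed Krt5 (0.027), Doc2g (-0.215), mt-Rnr1 (0.203) and mt-Rnr2 (0.035), and leaving out BFD replicate 4 reversed Cd79a (-0.039, against up to 0.198 without another library), none of them past the threshold there. The cause was not tested.

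Counts of genes higher and lower in the inputs were 313 and 224 with all 21 inputs, 34 and 7 with the covariate, and 344 and 322 at an adjusted p under 0.001. Without 1 library they ranged from 1405 to 2068 and from 1463 to 2179, lowest without BFD replicate 1. The other settings, apart from the replicate block given below, gave 1390 to 2004 and 1678 to 2348. In the pulldown DESeq2 called 99 and 45 and the threshold of 0.001 left 13 and 6. Without 1 library the pulldown ranged from 31 to 87 and from 13 to 30, highest without BFD replicate 1. The ribosomal RNA-like share differed by -2.58 points, by -2.80 to -2.27 without 1 library, and by -0.385 (exact permutation p = 0.126) over Gm42418, Gm26917 and AY036118 alone. The mitochondrial share differed by -0.119 to -0.0106 without 1 library, and its exact permutation p was 0.00476 without BFD replicate 3.

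The labels do not say whether pools of the same replicate number were handled together. Correlations of same-numbered deviations ran from -0.108 to 0.125 (median -0.04), against a median of -0.012 for other numbers. They show no pairing but cannot exclude shared handling. With the replicate block the inputs gave 1472 and 1512 calls and the pulldown 12 and 6, and 111 of the 119 named genes were still called.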
